A study of Mus musculus with 20 samples.

Results

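The acute control and young control groups of this study are young adult mice on the same control diet, and they were compared here for their hypothalamic transcripts, for pituitary tissue in the dissections and for the make-up of the libraries. Their members were chosen by label and are 9 of the 20 libraries of the series, 5 of acute control and 4 of young control. All were male mice of the inbred strain C57BL/6J. Acute control mice were 4 months old and young control mice 3 months old, and each group had been on control diet for 1 week. The acute controls served in the study as the reference for 1 week of Gly-Low, a diet that lowers glycation, and the young controls as the reference for mice of 25 months. No treatment separates the groups, but their age and their study arm go together and cannot be told apart. The labels give no batch and do not say whether each library came from its own animal, so p-values measure the spread between these samples, which may be technical.

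The hypothalamus sits directly above the pituitary and controls it through peptides released at the median eminence and through axons that run down the stalk. Pituitary cells make growth hormone, prolactin, the thyrotropin and gonadotropin subunits and pro-opiomelanocortin in very large amounts, so a small piece of gland left on the dissected tissue can be seen in its RNA. Neurons of the arcuate nucleus, at the base of the hypothalamus, make the feeding peptides NPY, AGRP and CART and the releasing hormone GHRH, and neurons of the paraventricular nucleus make CRH and oxytocin. Pomc is made both by arcuate neurons and by corticotrophs and melanotrophs of the pituitary, which makes it an uncertain marker of either tissue.

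The pituitary transcripts that separate these libraries include a transcription factor and a gene it is known to activate, and their promoters are shown for that reason. Pou1f1 encodes the pituitary factor PIT1, which drives Gh and Prl in somatotrophs and lactotrophs. The windows below run from 250 bases before to 50 bases after the gene start on the plus strand (RefSeq, GRCm38.p6), Prl at chr13:27057320-27057619 and Pou1f1 at chr16:65520262-65520561. Capitals mark matches on either strand to ATGNATA, the core of the site that PIT1 is known to bind.
Prl: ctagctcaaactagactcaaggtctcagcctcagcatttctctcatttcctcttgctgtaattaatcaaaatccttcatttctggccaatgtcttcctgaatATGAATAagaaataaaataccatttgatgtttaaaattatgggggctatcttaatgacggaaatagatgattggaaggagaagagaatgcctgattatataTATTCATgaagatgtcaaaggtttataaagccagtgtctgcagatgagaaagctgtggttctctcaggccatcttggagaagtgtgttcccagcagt
Pou1f1: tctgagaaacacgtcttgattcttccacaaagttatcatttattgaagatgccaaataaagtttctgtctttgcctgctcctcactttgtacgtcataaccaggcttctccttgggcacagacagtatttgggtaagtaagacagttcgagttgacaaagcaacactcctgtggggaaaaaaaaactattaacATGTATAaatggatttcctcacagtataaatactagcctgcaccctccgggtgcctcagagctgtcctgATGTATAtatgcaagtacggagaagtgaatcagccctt
In Prl the matches begin at base -148, read on the plus strand, and at base -47, read on the minus strand. In Pou1f1 they begin at base -57 and base 12, both read on the plus strand. Bases are counted from the gene start, which is base 0. The motif stands in 2903 of 32851 such windows, or 8.84%. Of the 7 pituitary hormone genes 6 matched a window, all but Gh, and 1 of these, Prl, holds the motif.

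Total counts in the 9 libraries ran from 15848372 to 26382533, and the number of genes with a count ran from 18936 to 24347. Transcripts that define hypothalamic tissue were present in all 9, with Hcrt of orexin neurons at 52.7 CPM or more, Pmch of melanin-concentrating hormone neurons at 94.7 or more and Oxt at 66.8 or more. CPM here are counts scaled to a common library size with TMM factors. Several libraries stood apart before any test. Acute controls 2 and 5, and to a lesser degree 3, held pituitary hormone transcripts, and young control 4 lay among the acute controls rather than the other young controls in mitochondrial share, ribosomal protein share and the length of the transcripts it held.

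**Figure D1:**
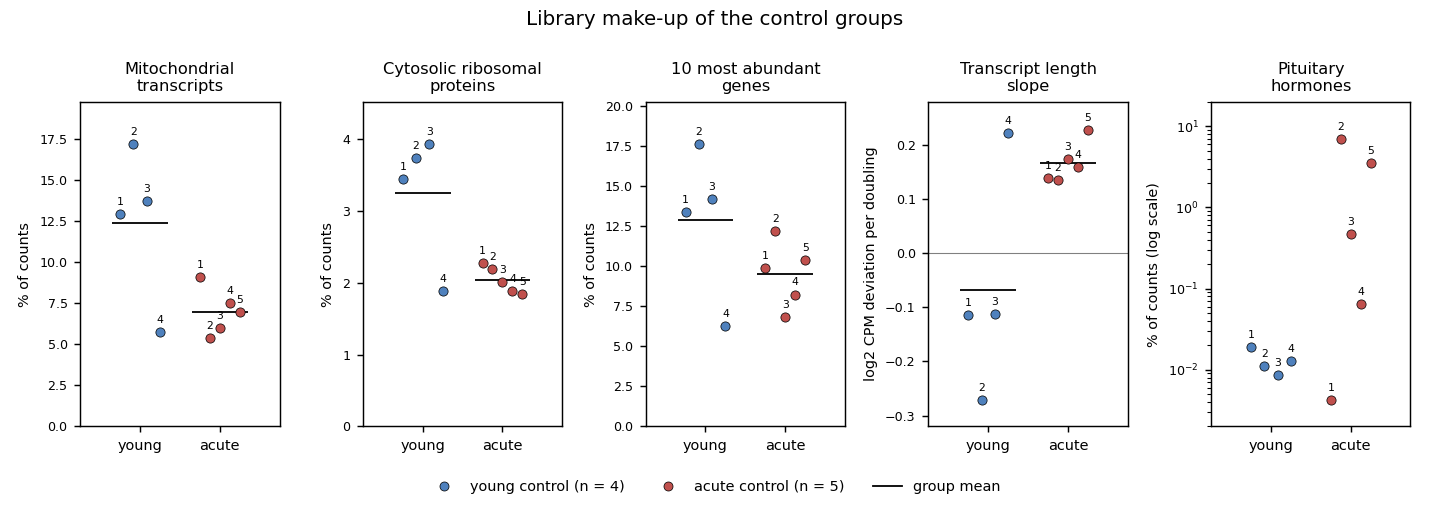
Make-up of each library, with the share of counts in % for 4 groups of transcripts (hormones on a log axis) and the transcript length slope, in log2 CPM deviation per doubling of length. Points are libraries with their numbers and black lines are group means. Young control 4 lies among or beside the acute controls in the first 4 panels, and acute controls 2, 3 and 5 hold the most pituitary hormone.

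Transcripts of the mitochondrial genome took 9.11%, 5.35%, 5.97%, 7.52% and 6.97% of the counts in acute controls 1 to 5 and 12.9%, 17.2%, 13.7% and 5.73% in young controls 1 to 4. Young controls 1, 2 and 3 were above every acute control and young control 4 was below 4 of them. The means were 6.98% ± 1.46 (SD, n = 5) and 12.4% ± 4.81 (SD, n = 4), and the difference did not pass the test (two-sided exact permutation p = 0.0794, and 0.159 after adjustment over 8 measures). In this design the smallest p possible is 0.0159, and a measure alone at that p would not pass after adjustment over 8 measures.

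Transcripts of cytosolic ribosomal proteins amounted to 2.28%, 2.19%, 2.01%, 1.89% and 1.85% of the counts in the acute controls and 3.44%, 3.74%, 3.93% and 1.88% in the young controls. Here too, young controls 1, 2 and 3 lay above all acute controls and young control 4 among them (exact permutation p = 0.0794, adjusted 0.159). The transcript length slope says how far a library's log2 CPM departs from the average library per doubling of transcript length, and a positive value means relatively more of the long transcripts. It was 0.14, 0.14, 0.17, 0.16 and 0.23 in the acute controls and -0.11, -0.27, -0.11 and 0.22 in the young controls (exact permutation p = 0.0794, adjusted 0.159). Long transcripts thus had a larger part in all acute controls and in young control 4 than in young controls 1, 2 and 3.

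The share held by the 10 most abundant genes was 9.51% ± 2.06 in acute control (SD, n = 5) and 12.9% ± 4.76 in young control (SD, n = 4), with an exact permutation p of 0.19 (0.305 adjusted). Haemoglobin transcripts, a sign of blood left in the tissue, took between 0.00748% and 0.0340% of the counts in acute control and between 0.00673% and 0.0364% in young control (exact permutation p = 0.397). Genes detected and total counts gave exact permutation p-values of 0.254 and 0.27. None of the 8 measures passed after adjustment, while the exact permutation p was under 0.1 for 4 of them. With so few libraries, this does not show that the groups are alike.

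Between the groups, 1009 of 19061 genes tested passed an adjusted p of 0.05 in edgeR's quasi-likelihood test (5.29%), 833 lower in acute control (4.37%) and 176 higher (0.923%). Every acute control lay below every young control for 683 genes (3.58% of those tested) and above every young control for 402 genes (2.11%). The median log2 fold change, acute control minus young control, was 0.03 over all genes tested. Gene p-values below are adjusted over all genes tested in edgeR, and each fold change stands with its standard error.

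Single libraries decide these counts. No gene passed in edgeR without young control 2 or without young control 3 (0 genes, with 2763 and 2936 at an unadjusted p under 0.05), 71 passed without acute control 5, 182 without young control 1, and 3957 without young control 4. Without acute control 1, 2 or 4 the counts were 428, 540 and 510. With only the 9 libraries in the fit, 3 genes passed, Npy, Agrp and Crh, and all 3 were lower in acute control. DESeq2 called 1746 genes and limma-voom with quality weights 6068. Of the genes called lower, young control 4 had the lowest value of the young controls in 792 of 833 (95.1%, against 34.5% of all genes tested). Of the genes called higher it had the highest value of the young controls in 128 of 176 (72.7%, against 37.5%).

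**Figure D2:**
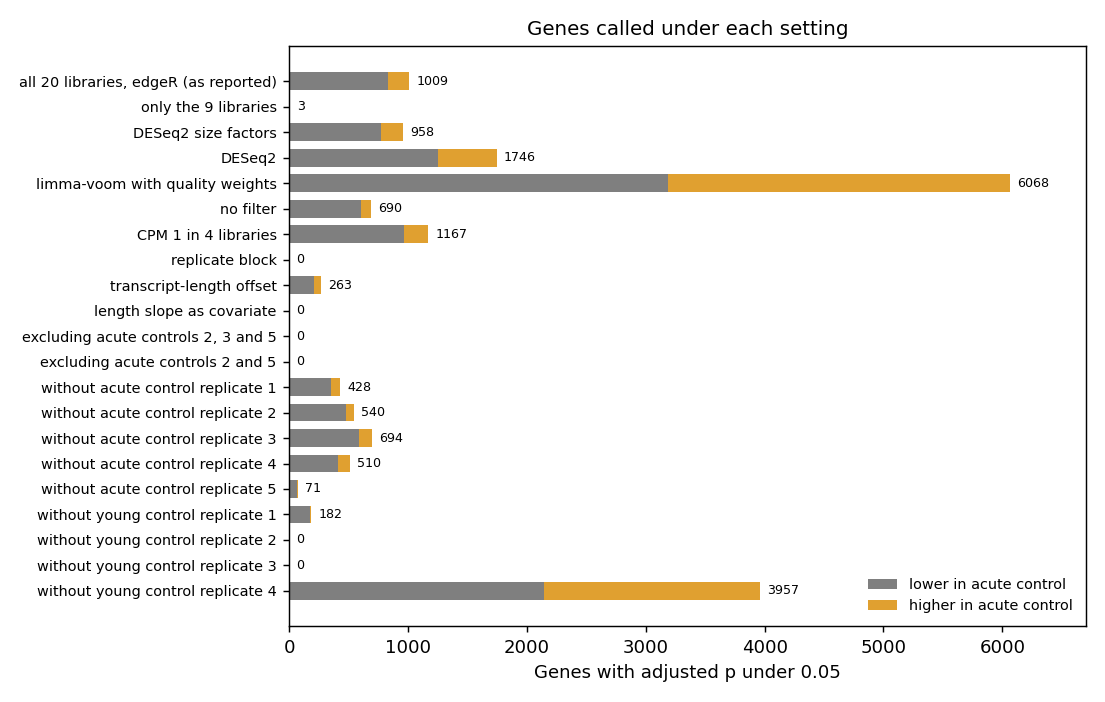
Number of genes with an adjusted p under 0.05 (x axis) in the fit reported and under each other setting (y axis), parted by direction. The number ranges from 0 to 6068 against 1009 in the fit reported, and it is 0 without young control 2 or 3.

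Pituitary hormones gave some of the largest differences. All 7 hormone genes of the gland passed as higher in acute control, beside 0.923% of all genes tested. With only the 9 libraries in the fit 0 of the 7 passed, and with limma-voom and quality weights 3 passed. Their median log2 fold change was 5.89. The groups did not separate, because acute control 1 lay within or below the young controls for all 7. In bulk tissue, more cells of a type and more RNA per cell cannot be told apart. Together the 7 hormones took 0.00428%, 7.02%, 0.467%, 0.0653% and 3.57% of the counts in acute controls 1 to 5 and 0.0191%, 0.0110%, 0.00859% and 0.0127% in young controls 1 to 4. Acute control 2 held the most and acute control 1 the least of the 9 libraries. The means were 2.23% ± 3.06 (SD, n = 5) and 0.0128% ± 0.00449 (SD, n = 4), and the difference did not pass the test over libraries (exact permutation p = 0.0794, adjusted 0.159). On the log2 scale, chosen after seeing the values, the difference was 4.69 with the same exact p of 0.0794. Without Pomc the difference in the share was 2.13 percentage points, against 2.21 with it. In the 11 libraries of the other groups the share ran from 0.00616% to 0.147%, below the values of acute controls 2, 3 and 5.

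Gh (ENSMUSG00000020713, chromosome 11, 106300271 to 106301865, GRCm38), the growth hormone of somatotrophs, was at 3.28, 51580, 2958, 288 and 27140 CPM in acute controls 1 to 5 and at 87.7, 38.2, 16.6 and 27.3 CPM in the young controls. Acute controls 2 to 5 lay above every young control, and acute control 1 below every one. Gh was the most abundant of all genes in acute controls 2 and 5, where it took 5.61% and 2.95% of the counts, and ranked 10 in acute control 3. Its log2 fold change was 8.60 ± 2.11 (adjusted p = 0.026). It was 4.68 without acute controls 2 and 5, a set chosen after the values were seen, and 1.78 without acute controls 2, 3 and 5, and passed in neither fit (adjusted p = 0.174 and 0.658, range over all alternatives 1.97e-06 to 0.658). Both fits leave out the libraries with the most Gh, so a smaller fold change follows from that choice. The same holds for Prl, Lhb, Pomc and Lhx3 without acute controls 2, 3 and 5, given below.

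Prl (ENSMUSG00000021342, chromosome 13, 27057570 to 27065205), the prolactin of lactotrophs, was at 1.00, 8581, 599, 44.2 and 4860 CPM in the acute controls and at 13.4, 3.85, 1.76 and 2.47 CPM in the young controls. The order of the acute controls was that of Gh, and young control 1 again was the highest of the young controls. The log2 fold change of Prl was 9.07 ± 2.22 (adjusted p = 0.0259), and 2.10 without acute controls 2, 3 and 5. There were 3.29, 6.01, 4.94, 6.51 and 5.58 Gh counts per Prl count in the acute controls and 6.57, 9.92, 9.45 and 11.0 in the young controls. Every acute control had a lower ratio than every young control, by little for acute control 4 and young control 1, and this difference was not tested.

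The glycoprotein hormones showed the same libraries. Cga, the alpha subunit they share, was at 1.28, 728, 100.4, 7.69 and 374 CPM in the acute controls and at 2.38, 11.6, 1.88 and 0.89 CPM in the young controls (log2 fold change 5.89 ± 1.44, adjusted p = 0.026). Young control 2 lay above acute controls 1 and 4. Tshb, the beta subunit of thyrotropin, was at 1.71, 69.3, 7.15, 2.80 and 35.1 CPM against 0.88, 2.16, 1.67 and 1.66 CPM (3.86 ± 0.87, adjusted p = 0.0212). Lhb and Fshb, the beta subunits of the gonadotropins, had log2 fold changes of 4.99 ± 1.31 (adjusted p = 0.0339) and 7.80 ± 1.69 (adjusted p = 0.0193). Lhb was at 0.00, 115, 18.2, 1.2 and 43.1 CPM in the acute controls and at 0.94, 2.39, 0.59 and 0.63 CPM in the young controls, and its fold change was -0.85 without acute controls 2, 3 and 5, where it did not pass. Fshb was at 0.43, 261, 32.1, 2.20 and 126 CPM in the acute controls and at 0.19, 1.34, 0.13 and 0.00 CPM in the young controls. Acute control 1 was below the highest young control for each of these 4 genes.

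Pomc (ENSMUSG00000020660, chromosome 12, 3954951 to 3960642), the precursor of corticotropin and melanocortins, was at 35.5, 3158, 529, 264 and 291 CPM in the acute controls and at 84.1, 57.1, 64.2 and 82.5 CPM in the young controls. Acute control 1 was lowest of all 9 libraries, and acute control 2 stood far above the rest. The log2 fold change was 3.57 ± 0.84 (adjusted p = 0.024), 1.96 without acute control 2 (adjusted p = 0.0547) and 1.06 without acute controls 2, 3 and 5 (adjusted p = 0.431, range over all alternatives 0.000521 to 0.431). Pomc and Gh were both highest in acute control 2 and lowest in acute control 1, but Pomc did not change in proportion to Gh. Acute control 3 held more Pomc than acute control 5, but less Gh. There were 0.0612 Pomc counts per Gh count in acute control 2 and 0.0107 in acute control 5, with 0.179 in acute control 3, 0.919 in acute control 4 and 10.8 in acute control 1. In the young controls the ratio was 0.959, 1.49, 3.86 and 3.02.

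**Figure D3:**
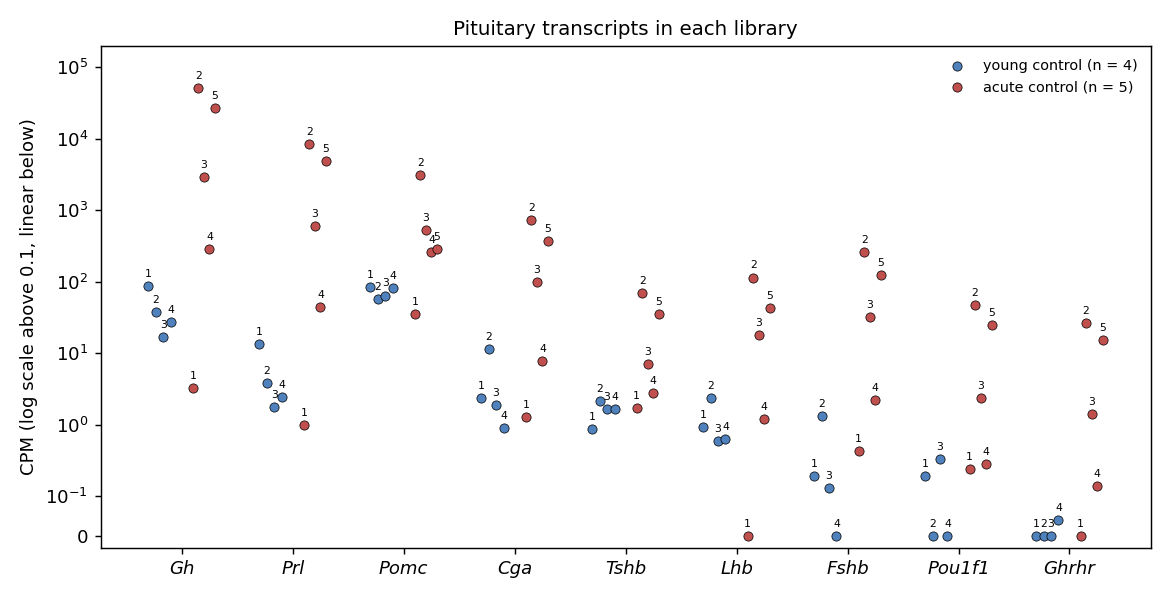
CPM of 9 pituitary transcripts in each library (y axis, log scale above 0.1 and linear below). Points are libraries with their numbers. Acute controls 2, 5 and 3 lie above the young controls for all 9 genes, acute control 4 for Gh, Prl and Pomc among others, and acute control 1 lies with or below the young controls.

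Of 12 pituitary lineage factors 9 were tested and 2 passed, both higher in acute control, beside 0.923% of all genes tested. The median of the 9 was 2.59. Pou1f1 (promoter above) was at 0.24, 47.4, 2.36, 0.28 and 25.1 CPM in the acute controls and at 0.19, 0.00, 0.33 and 0.00 CPM in the young controls (6.79 ± 1.71, adjusted p = 0.0324). Its highest libraries were those of Gh and Prl. Lhx3, a homeobox factor of the early gland, was at 0.29, 11.4, 2.72, 0.46 and 5.81 CPM against 0.00, 0.00, 0.80 and 0.66 CPM (3.38 ± 0.98, adjusted p = 0.049), and its fold change was -0.02 without acute controls 2, 3 and 5 (adjusted p = 0.998, range over all alternatives 0.00365 to 0.998). Summed over the 12 factors, the acute controls held 15.5 to 133 CPM and the young controls 23.8 to 35.0 CPM.

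Other factors did not pass. Pitx1, a homeobox gene of all pituitary cells, had 95 counts in the 5 acute controls, all from libraries 2, 3 and 5. It had 0 counts in the 4 young controls and did not pass in the edgeR fit (adjusted p = 0.0918). At an allowance of 3 counts for the young controls its log2 fold change would be 4.41. The exact 95% lower limit of the ratio of summed counts was 17.0-fold, which covers counting error only. Neurod4 (2.59 ± 1.26, adjusted p = 0.248), Pax7 of melanotrophs (2.64 ± 1.14, adjusted p = 0.187), Gata2 of gonadotrophs and thyrotrophs (1.68 ± 0.67, adjusted p = 0.154), Foxl2 of gonadotrophs (1.30 ± 1.35, adjusted p = 0.64) and Tbx19 of corticotrophs and melanotrophs (0.64 ± 0.51, adjusted p = 0.521) had positive fold changes. Tbx19 was at 8.36 CPM in acute control 2 and between 1.28 and 2.86 CPM in the other 8 libraries. Hesx1 and Lhx4 were too low to be tested, with 9 and 22 counts in all acute controls and 0 and 1 in all young controls.

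Of 5 tested receptors through which the hypothalamus acts on the gland, 1 passed as higher, beside 0.923% of all genes tested. This was Ghrhr, the GHRH receptor of somatotrophs. It was at 0.00, 26.1, 1.40, 0.14 and 15.4 CPM in the acute controls and at 0.00, 0.00, 0.00 and 0.04 CPM in the young controls. It had 1103 counts in acute control and 1 in young control, a 742-fold ratio with an exact 95% interval from 133 to 29300 that covers counting error only (adjusted p = 0.0232 in edgeR). Gnrhr of gonadotrophs was at 0.00, 16.3, 2.08, 0.00 and 7.22 CPM against 0.38, 0.00, 0.00 and 0.04 CPM and did not pass (5.76 ± 1.74, adjusted p = 0.0581). Drd2, the dopamine receptor of lactotrophs and melanotrophs (0.54 ± 0.36, adjusted p = 0.421), Crhr1 (0.19 ± 0.38, adjusted p = 0.824) and Trhr (-0.07 ± 0.30, adjusted p = 0.93) are also made by brain cells and did not pass. Avpr1b was not tested, with 19 counts in the acute controls and 0 in the young controls. The summed level of the 6 receptors ran from 34.2 to 85.0 CPM in acute control and from 34.4 to 38.7 CPM in young control.

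Melanotrophs form the intermediate lobe of the pituitary. Of their 6 genes only Pomc passed, as higher, beside 0.923% of all genes tested. Their summed level ran from 363 to 3540 CPM in acute control and from 273 to 387 CPM in young control. Oacyl was at 0.00, 27.8, 2.95, 1.67 and 1.41 CPM in the acute controls and at 0.82, 0.18, 0.00 and 0.59 CPM in the young controls (4.11 ± 1.28, adjusted p = 0.0669). Oacyl was thus highest in acute control 2 and at a similar level in acute controls 4 and 5, although acute control 5 held far more Gh. Pax7 was at 1.73 CPM in acute control 2, against 0.25 CPM in acute control 5. Pcsk2, a prohormone convertase also made by neurons, was at 0.33 ± 0.12 (adjusted p = 0.119).

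Neuropeptide transcripts of the arcuate nucleus went the other way. Of 9 genes of this nucleus 8 were tested, 5 passed as lower in acute control and 1, Pomc, as higher, with a median log2 fold change of -1.18. Over all genes tested, 4.37% passed as lower and 0.923% as higher. Each of the 5 was lower in every acute control than in every young control, as were 3.58% of all genes tested. Npy (ENSMUSG00000029819, chromosome 6, 49822710 to 49829507), a strong stimulator of feeding, was at 7.04, 13.6, 14.3, 14.7 and 11.7 CPM in the acute controls and at 86.0, 89.6, 133 and 49.5 CPM in the young controls. The lowest young control, at 49.5 CPM, stood well above the highest acute control, at 14.7 CPM. The log2 fold change of Npy was -2.87 ± 0.43 (adjusted p = 0.0116), and it ran from -3.07 to -2.19 over the alternatives.

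Agrp (ENSMUSG00000005705, chromosome 8, 105566698 to 105637393), made by the same neurons as Npy and also a stimulator of feeding, was at 9.56, 6.29, 11.1, 9.64 and 9.50 CPM in the acute controls and at 33.5, 37.3, 40.01 and 21 CPM in the young controls. Its log2 fold change was -1.84 ± 0.31 (adjusted p = 0.0116), from -2.0 to -1.23 over the alternatives. As 7 annotated genes overlap Agrp, 5 on the opposite strand, some of its counts may come from them. Cartpt, the precursor of the CART peptides that restrain feeding, was at 52.5, 72.5, 107, 100 and 68.6 CPM in the acute controls and at 173, 225, 188 and 109.7 CPM in the young controls (-1.11 ± 0.28, adjusted p = 0.0282). The nearest libraries of the groups, acute control 3 and young control 4, were close for this gene.

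Ghrh (chromosome 2, 157329497 to 157347506), which releases growth hormone from the pituitary, was at 1.66, 5.95, 6.03, 6.45 and 4.81 CPM in the acute controls and at 18.1, 21.9, 22.9 and 10.1 CPM in the young controls (-1.87 ± 0.32, adjusted p = 0.0116). Ghrh was lowest in acute control 1, the library with the least Gh, as were Npy, Cartpt and Tac2 but not Agrp. Acute controls 2 to 5 held less Ghrh but more Gh than every young control. Tac2, the precursor of neurokinin B in neurons that drive gonadotropin release, was at 15.2, 20.7, 26.9, 26.9 and 20.7 CPM against 46.7, 74.6, 56.3 and 31.0 CPM (-1.24 ± 0.28, adjusted p = 0.0216). The list members Th (-0.23 ± 0.18, adjusted p = 0.509) and Tbx3 (-0.51 ± 0.67, adjusted p = 0.727), named after their values were seen, did not pass.

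Of 7 genes of the paraventricular and supraoptic nuclei 2 passed, both lower in acute control, beside 4.37% of all genes tested. The median of the 7 was -0.33. Crh (ENSMUSG00000049796, chromosome 3, 19693401 to 19695396), which releases corticotropin from the pituitary, was at 3.57, 3.91, 3.51, 3.44 and 3.73 CPM in the acute controls and at 15.6, 11.1, 13.5 and 9.60 CPM in the young controls. The acute controls varied little for this gene and lay far below every young control. Its log2 fold change was -1.77 ± 0.29 (adjusted p = 0.0116), from -1.96 to -1.47 over the alternatives. Oxt, the precursor of oxytocin, was at 66.8, 164, 223, 157 and 138 CPM in the acute controls and at 443, 571, 413 and 182 CPM in the young controls (-1.43 ± 0.34, adjusted p = 0.0247). Acute control 3 lay above young control 4, so the groups overlapped for Oxt.

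**Figure D4:**
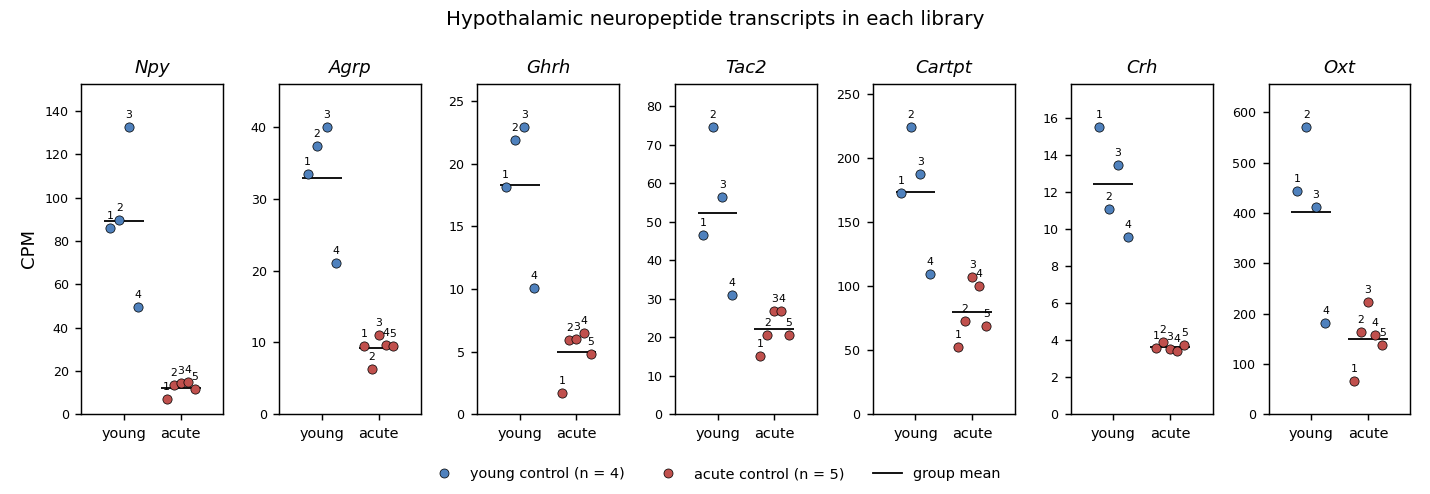
CPM of 7 hypothalamic neuropeptide transcripts in each library (y axes start at 0), with library numbers and black lines at group means. For Npy, Agrp, Ghrh, Tac2, Cartpt and Crh every acute control lies below every young control, and young control 4 is the lowest young control in all 7 panels.

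The calls of these peptides depend on which libraries of either group are in the fit, but their fold changes moved less than those of the pituitary genes. Npy, Agrp and Crh also passed with only the 9 libraries in the fit (adjusted p = 0.0214, 0.041 and 0.0283) and with an offset for transcript length (adjusted p = 0.0166, 0.038 and 0.0192). They did not pass with the length slopes as a covariate, where their log2 fold changes were -2.28, -1.47 and -1.47 (adjusted p = 0.112, 0.175 and 0.158, with ranges over the alternatives from 1.14e-07 to 0.153, 7.29e-06 to 0.175 and 4.71e-06 to 0.158). Without acute controls 2, 3 and 5 the log2 fold changes were -3.03, -1.78 and -1.82, and none of the 3 passed (adjusted p = 0.153 for each). Without acute controls 2 and 5 none passed either (adjusted p = 0.108 for each). Without young control 2 the log2 fold changes were -2.86, -1.77 and -1.82, and again none passed (adjusted p = 0.056, 0.0589 and 0.0589). In acute controls 1 and 4, which held the least pituitary hormone, Npy, Agrp and Crh also lay below every young control. With the length offset the fold changes of Oxt, Tac2 and Cartpt were -0.72, -0.66 and -0.70, and none of the 3 passed (adjusted p = 0.21, 0.094 and 0.0909). The part of library make-up in these differences was not tested beyond these fits.

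Of the 12 feeding, glycation and glia genes named for this study, Pomc was higher, Agrp, Npy and Cartpt were lower and 8 did not pass. Over all genes tested, 0.923% were called higher and 4.37% lower. Hcrt, the orexin precursor, was at 52.7, 125, 245, 214 and 106 CPM in the acute controls and at 309, 282, 207 and 147 CPM in the young controls (-0.67 ± 0.46, adjusted p = 0.439). Pmch, of the neurons that make melanin-concentrating hormone, was at -0.77 ± 0.34 (adjusted p = 0.2). The ghrelin receptor Ghsr averaged 10.3 CPM ± 0.960 (SD, n = 5) among acute controls and 12.4 CPM ± 1.62 (SD, n = 4) among young controls (-0.27 ± 0.24, adjusted p = 0.573). Ghrl, which encodes ghrelin, was at or under 1.03 CPM in all 9 libraries (-0.16 ± 0.89, adjusted p = 0.944). The leptin receptor Lepr (-0.13 ± 0.27, adjusted p = 0.838), the melanocortin receptor Mc4r (-0.03 ± 0.26, adjusted p = 0.961) and Glo1, which clears methylglyoxal (-0.18 ± 0.18, adjusted p = 0.631), had fold changes smaller than or equal to their standard errors. Gfap, the astrocyte filament gene, was at 119.5, 145, 279.6, 235 and 265 CPM in the acute controls and at 75.5, 30.3, 78.0 and 245 CPM in the young controls (0.96 ± 0.50, adjusted p = 0.289). Young control 4 lay within the acute controls for Gfap, and without it the log2 fold change was 1.77 and passed (adjusted p = 0.0142, between 0.00061 and 0.873 among the alternatives).

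Transcripts of the ribosome and of respiration were lower in acute control more often than the 4.37% of all genes tested. These lists moved with the library shares and length slopes given above, and the part of these in the result was not tested beyond the 2 fits that take up length. Of 83 cytosolic ribosomal protein genes tested, 35 were lower in acute control, 0 were higher and the median log2 fold change was -0.93. Rps29, of the small subunit, was at 56.8, 79.5, 78.1, 68.1 and 56.4 CPM in the acute controls and at 322, 401, 427 and 79.7 CPM in the young controls (-2.18 ± 0.37, adjusted p = 0.0116). Young controls 1, 2 and 3 stood apart for this gene, while young control 4 was just above the highest acute control. Rps28 (-2.23 ± 0.38, adjusted p = 0.0116), Rpl38 (-2.33 ± 0.42, adjusted p = 0.0122) and Rpl37a (-1.52 ± 0.31, adjusted p = 0.017) followed the same libraries. Many ribosomal protein genes have processed pseudogenes, so the counting may have split their reads. With the length offset 9 were lower, 1 was higher and the median was -0.33, and with the length slope as a covariate none passed and the median was -0.11.

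Of 78 nuclear genes of oxidative phosphorylation, 45 were lower and 0 were higher, with a median of -0.92. Cox5b, a subunit of cytochrome c oxidase, was at 85.2, 105, 102, 96.3 and 81.7 CPM in the acute controls and at 275, 406, 393 and 107 CPM in the young controls (-1.65 ± 0.31, adjusted p = 0.0129). Again young control 4 was near the acute controls and the other young controls far above. Atp5k of ATP synthase (-2.36 ± 0.44, adjusted p = 0.0133), Ndufa3 of complex I (-2.11 ± 0.38, adjusted p = 0.0122) and Uqcr11 of complex III (-1.89 ± 0.36, adjusted p = 0.0136) were also lower. The length offset left 10 calls and a median of -0.39, and the covariate 0 calls and a median of -0.23.

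Of 74 mitochondrial ribosomal proteins, 35 were lower and 0 higher (median -0.64), among them Mrps12 (-1.39 ± 0.26, adjusted p = 0.0133), Mrps36 (-1.41 ± 0.27, adjusted p = 0.0134), Mrpl36 (-1.17 ± 0.23, adjusted p = 0.0157) and Mrpl38 (-0.92 ± 0.19, adjusted p = 0.017). With the length offset 13 passed as lower. Of the 13 proteins encoded by the mitochondrial genome itself, only mt-Nd2 passed, at 3973, 2185, 2478, 3685 and 3331 CPM in the acute controls and 8539, 18930, 10100 and 3114 CPM in the young controls (-1.70 ± 0.43, adjusted p = 0.0294). The median of the 13 was -1.16, and 0.17 with the length slope as a covariate. All 4 lists had a median below 0 in every other fit, and 0 calls without young control 2 and without young control 3.

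The direction of the calls went with transcript length. In 5 bins of equally many genes, ordered by median transcript length, 15.9% of the shortest genes (54 to 1248 bases) were lower in acute control and 0.315% were higher, with a median log2 fold change of -0.49. Of the longest genes (4115 to 123179 bases) 0.236% were lower and 1.65% higher, with a median of 0.26. The median length of the genes called lower was 865 bases and that of the genes called higher 3410.5 bases, against 2444 bases for all genes tested. An offset for the trend of each library over length brought the medians of the 5 bins to between -0.03 and 0, and 263 genes then passed, 235 of them among the 1009 with the same direction.

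**Figure D5:**
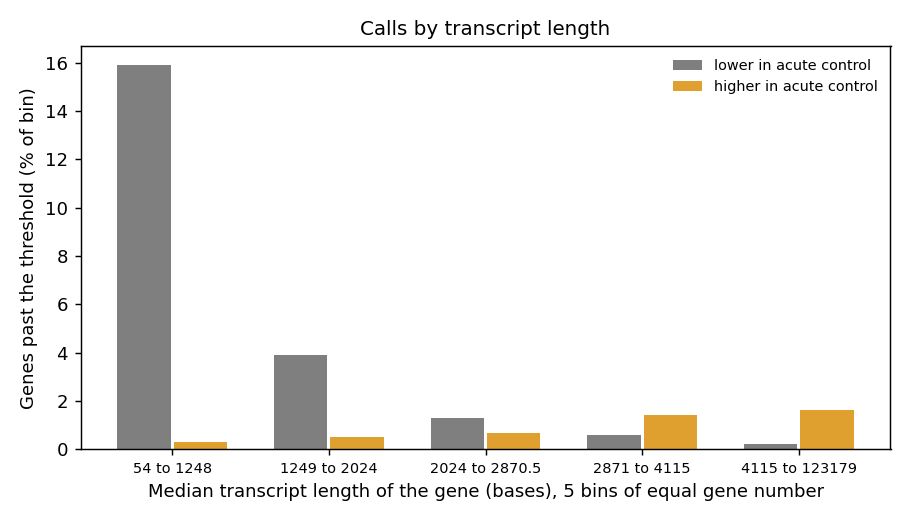
Share of genes past an adjusted p of 0.05 (y axis, % of the genes in a bin) in 5 bins of equal gene number by median transcript length (x axis, bases), for genes lower and genes higher in acute control. The share called lower goes from 15.9% in the shortest bin to 0.236% in the longest, and the share called higher from 0.315% to 1.65%.

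Beyond these lists, the genes with the smallest p were of mixed function. Among those lower in acute control, Gstm1, a glutathione transferase, was at 89.1, 118, 148, 148 and 127 CPM against 311, 309.7, 332 and 217 CPM in the young controls (-1.22 ± 0.17, adjusted p = 0.0116). All 4 young controls lay above all acute controls. Apoc1, an apolipoprotein of astrocytes and macrophages, was at 2.52, 5.16, 3.67, 3.33 and 2.49 CPM against 22.6, 30.1, 25.3 and 6.24 CPM (-2.61 ± 0.43, adjusted p = 0.0116). Snrpa of the U1 splicing particle (-0.96 ± 0.15), the DNA-binding protein gene Fubp1 (-0.62 ± 0.10), Gm9844 (-3.00 ± 0.50) and 1700007K13Rik (-1.64 ± 0.27) had the same adjusted p of 0.0116. Of Gm9844 the young controls held 6.83, 19.9, 20.01 and 2.36 CPM, so its values spread widely among them.

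Among the higher genes, Shtn1, which acts in axon formation, was at 47.8, 47.1, 50.6, 47.3 and 41.8 CPM in the acute controls and at 26.7, 18.4, 20.4 and 33.0 CPM in the young controls (0.93 ± 0.17, adjusted p = 0.0122). Sephs1 (0.53 ± 0.10, adjusted p = 0.0122), Nudcd3 (0.69 ± 0.14, adjusted p = 0.016), Fbxo9 (0.53 ± 0.11, adjusted p = 0.0166), Gpr146 (0.70 ± 0.15, adjusted p = 0.0181) and the uncoupling protein gene Ucp3 (0.98 ± 0.21, adjusted p = 0.0181) also had every acute control above every young control. Top2a, the topoisomerase of dividing cells, was at 0.29, 1.81, 0.60, 0.96 and 2.03 CPM against 0.19, 0.06, 0.00 and 0.04 CPM (4.06 ± 0.75, adjusted p = 0.0128). Its highest libraries were acute controls 5 and 2, those with the most pituitary hormone, and acute control 1 still lay above all young controls. The libraries of the other groups, which held little pituitary hormone, had 0.365 to 1.313 CPM of Top2a, also above every young control. Acute controls 2 and 5 were the 2 highest of the 9 libraries for 55 of the 176 genes called higher (31.2%). Genes called higher are selected for high values in the acute controls. The 3.71% over all genes tested is therefore not a fair baseline for this share.

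Markers of most other cell types and regions gave few calls, beside 5.29% of all genes tested. At that share, lists this short would often hold no call. No member of the lists of neurons, GABAergic neurons, astrocytes, oligodendrocytes, tanycytes, endothelial cells, mural cells, meninges, choroid plexus, border macrophages or erythrocytes passed, nor of the lateral hypothalamus, the ventromedial, suprachiasmatic and mammillary nuclei, the thalamus or the cortex. The summed neuron markers ran from 5625 to 6955 CPM in acute control and from 5107 to 6738 CPM in young control, those of astrocytes from 5818 to 7347 CPM and from 6527 to 7056 CPM, and those of oligodendrocytes from 5652 to 10400 CPM and from 5843 to 6943 CPM. For choroid plexus the sums were 39.4 to 50.3 CPM and 38.8 to 53.5 CPM. The groups thus overlapped in each of these sums. In single alternatives at most 4 neuron, 3 astrocyte, 3 endothelial and 3 choroid plexus genes passed in 1 direction. The same held for at most 3 GABAergic neuron, 3 mural and 3 lateral hypothalamus genes and 2 of the suprachiasmatic nucleus. All 5 lateral hypothalamus genes had a log2 fold change below 0, with a median of -0.67.

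In 4 lists for other cell types 1 or 2 members passed, where over all genes tested 0.923% were called higher and 4.37% lower. Of 8 genes of oligodendrocyte precursors, the growth factor receptor gene Pdgfra was higher, at 170.3, 102, 114, 121 and 117 CPM against 77.2, 73.7, 66.1 and 87.9 CPM (0.71 ± 0.18, adjusted p = 0.0326). Of 14 microglia genes, the complement gene C1qa was lower, at 38.5, 43.9, 42.5, 39.0 and 35.6 CPM against 79.0, 102, 101 and 38.9 CPM (-1.01 ± 0.21, adjusted p = 0.0187), with young control 4 among the acute controls. The cilium genes Cfap126 (-1.32 ± 0.31, adjusted p = 0.0232) and Dynlrb2 (-1.61 ± 0.42, adjusted p = 0.0319) were lower among 7 genes of ependymal cells, which line the ventricle, and the tachykinin gene Tac1 (-0.87 ± 0.19, adjusted p = 0.0196) among 8 of the striatum, which hypothalamic neurons also express. The median log2 fold changes of these lists were 0.22, -0.31, -0.85 and 0.16, beside 0.03 over all genes. With the length offset none of the 4 lists held a call, and their medians were 0.10, -0.07, -0.26 and 0.00.

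In 4 pathway lists 1 to 3 members passed as lower in acute control, beside 4.37% of all genes tested. They were the heat shock genes Hspe1 (-1.01 ± 0.23, adjusted p = 0.0227) and Hspb1 (-1.34 ± 0.33, adjusted p = 0.0256) of 12, the proteasome genes Psmb5 (-0.62 ± 0.17, adjusted p = 0.0378) and Psmc4 (-0.52 ± 0.14, adjusted p = 0.0433) of 38, the spliceosome genes Snrpd2 (-1.49 ± 0.30, adjusted p = 0.0169), Snrpf (-1.31 ± 0.29, adjusted p = 0.0196) and Snrpb (-0.75 ± 0.18, adjusted p = 0.0252) of 23, and Park7, a glyoxalase-like protein gene (-0.86 ± 0.17, adjusted p = 0.0143), of 6 genes of methylglyoxal detoxification. The proteasome share of 5.26% is near that over all genes. The medians of the heat shock, proteasome and methylglyoxal lists were -0.22, -0.20 and -0.28, and that of the spliceosome list was 0.08, with 14 of its 23 genes above 0. With the length offset the heat shock, proteasome and methylglyoxal lists held 0 calls, and the spliceosome list held 2. Of 14 glucocorticoid-responsive genes the metallothionein gene Mt1 was lower, at 119, 129.7, 171, 215 and 179 CPM against 346, 361, 368 and 196 CPM (-0.97 ± 0.24, adjusted p = 0.0259). With the length offset Mt1 stood at -0.32 and did not pass (adjusted p = 0.401, between 0.000182 and 0.401 among the alternatives). Over all genes tested, 5.29% passed in either direction. No gene passed among 20 immediate early genes, 15 clock genes, 19 receptors of leptin, insulin and energy balance, 54 clustered protocadherins, 47 voltage-gated ion channels, 8 nuclear-retained long non-coding RNAs, 8 genes of peptide processing or 2 cold-inducible RNA-binding proteins. Members of each of these 8 lists passed in at least 1 alternative: up to 10 protocadherins, 9 ion channels, 6 immediate early genes, 4 genes of peptide processing, 2 of the receptors and 1 clock gene as higher, and up to 3 receptors, 2 genes of peptide processing, 1 protocadherin, 1 immediate early gene and 1 long non-coding RNA as lower. Both cold-inducible genes passed as higher with the length offset, where their median log2 fold change was 0.83, against 0.54 without it.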

How the data were processed

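Poly-A RNA of flash-frozen hypothalamus was sequenced from non-directional libraries, per the labels' protocols, so overlapping genes on opposite strands share reads. The deposited values are raw counts, not normalized by the authors. Build GRCm38 and the tools featureCounts 1.5.0-p3, HISAT2 2.0.5 and DESeq2 1.20.0 appear in the submitters' processing notes, without their roles. The annotation release and its strand setting were not given in the sources used here. Of 54532 genes, 54495 matched the GENCODE annotation used for symbols, positions and lengths, and the other 37 held at most 0.0198% of a library's counts.

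Genes were filtered with filterByExpr by group, libraries scaled with TMM and all 20 fitted in 5 groups with edgeR 4.0.16 (R 4.3.3, quasi-likelihood test, Benjamini-Hochberg, threshold 0.05). Alternatives used DESeq2 1.42.0 or its size factors, limma 3.58.1 voom, other filters, fewer libraries, the replicate block, a length offset over 40 bins and a length covariate. The fit without acute controls 2 and 5 and the log2 hormone share were added after seeing the data. The 8 library measures were compared with exact permutation tests. The members and the 46 gene lists (27 of cell types, 19 of pathways) were chosen with earlier results of these data known. Named genes are the 8 protein-coding genes of smallest p in each direction, all members of the 4 pituitary lists and of the 12 study genes, and up to 4 called members of each other list, of which some are not reported here.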

Additional observations from a re-analysis of the deposited data

Results flagged for a closer look

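In each group, the highest and lowest library were compared with the group's range for every named gene and measure, and 17 of 178 such sets held a library that stood apart. Chance flags about 1 set in 20. No explanation was weighed.

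In acute control 2, the library with the most pituitary hormone, 5 genes stood above the other acute controls. They were Pomc (3158 CPM), Oacyl (27.8 CPM), Tbx19 (8.36 CPM), Pax7 (1.73 CPM) and Hesx1 (0.30 CPM), genes of corticotrophs, melanotrophs or the early gland. Gh and Prl, which were also high in acute controls 5 and 3, did not stand apart in this way. Acute control 1 held the highest Trhr (37.5 CPM), Pdgfra (170.3 CPM) and Glo1 (192 CPM) of the acute controls, each apart from the other 4.

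Young control 2 stood above the other young controls for the hormone subunits Fshb (1.34 CPM) and Cga (11.6 CPM). Young control 1 was above them for Gnrhr (0.38 CPM) and below them for Ghsr (9.97 CPM), and young control 3 was above them for Neurod4 (1.34 CPM). Young control 4 was below the others for Atp5k (13.5 CPM) and Mt1 (196 CPM), as it was for most genes called lower in acute control. It alone had counts of Lhx4 (0.04 CPM) and Ghrhr (0.04 CPM), each a single count.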

How the results depend on the processing

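The counts called (higher and lower) against 1009 (176 and 833) were 3 (0 and 3) with only the 9 libraries, 1746 (497 and 1249) with DESeq2, 6068 (2879 and 3189) with limma-voom and quality weights, 263 (55 and 208) with the length offset, and 0 with the length slope as a covariate, without acute controls 2, 3 and 5, without acute controls 2 and 5, or without young control 2. These 4 fits had 2793, 2722, 2868 and 2763 genes at an unadjusted p under 0.05 in edgeR. With no filter 85 genes were higher. With DESeq2 size factors (958), no filter (690) or a CPM filter (1167) the counts were within 1.5 times. Leaving out 1 library gave from 0 to 3957 genes called, 0 to 1814 higher and 0 to 2143 lower. The cause was not tested, though fewer libraries entered several of these fits.

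With the replicate block, 0 genes passed (0 higher and 0 lower, lowest adjusted p 0.0651, 3404 at an unadjusted p under 0.05). Correlations of same-numbered libraries ran from -0.0619 to 0.0596 over 4 pairs, and 0 of 4 correlated best with their own number, so the numbers are not taken as pairs.

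Of the 57 called genes that are reported here by name, the call was lost for 57 with the block, with the length covariate, without young control 2 and without young control 3, for 52 of 55 with only the 9 libraries, for 35 without acute control 5, 26 without young control 1 and 19 with the length offset, and for 0 with DESeq2 and without young control 4. Lhb and Lhx3 were the 2 called genes whose fold change changed sign, at -0.85 and -0.02 without acute controls 2, 3 and 5.

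Among genes not called, that fit also turned Tbx19 (-0.53), Foxl2 (-4.86), Neurod4 (-1.15), Gnrhr (-4.15), Trhr (0.32), Crhr1 (-0.23), Lepr (0.15), Mc4r (0.23) and Glo1 (0.04). Without acute controls 2 and 5, Tbx19 was at -0.24, Neurod4 at -0.05, Trhr at 0.12, Lepr at 0.02 and Mc4r at 0.06. The length covariate turned Trhr (0.36), Crhr1 (-0.45), Drd2 (-0.07), Lepr (0.03), Mc4r (0.17) and Glo1 (0.24). The length offset turned Ghrl (0.27) and Glo1 (0.24), the replicate block Trhr (0.03) and Ghrl (0.28), and limma-voom Ghrl (0.65). Without young control 2, Trhr was at 0.06 and Crhr1 at -0.08. Leaving out 1 library at a time gave log2 fold changes on both sides of 0 for Tbx19 (-0.04 to 0.84), Trhr (-0.35 to 0.06), Crhr1 (-0.08 to 0.55), Ghrl (-0.43 to 0.48), Lepr (-0.31 to 0.07) and Mc4r (-0.25 to 0.07). The share of the 10 most abundant genes turned from -3.36 to 1.88 percentage points over nuclear protein-coding counts. No other difference in a measure changed sign, and none passed in any of its alternatives. Low counts limit Ghrhr, Pitx1 and other genes near 0 in the young controls.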
